A study of Mus musculus with 2 samples.

Results

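The genes described here are the matrix proteases and their inhibitors: every gene whose symbol marks it as a matrix metalloproteinase (Mmp), an ADAM or ADAMTS proteinase, an ADAMTS-like protein or a tissue inhibitor of metalloproteinases (Timp), together with Reck. The rule used only the symbols, and 84 of the 32285 genes in the files met it: 22 Mmp, 33 Adam, 19 Adamts, 5 Adamtsl and 4 Timp genes, and Reck. They were followed through the cell classes of the anterior eye segment of the mouse in single-cell RNA-sequencing data.

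These zinc-dependent proteases cut the matrix between cells and release or trim proteins at the cell surface. Secreted MMPs are made as inactive precursors, membrane-type MMPs and ADAMs act at the cell surface, and ADAMTS proteinases cut proteoglycans and procollagens. Timp1 to Timp4 encode secreted inhibitors that block the active site, and Reck encodes a membrane-anchored inhibitor. In the trabecular meshwork (TM), the sieve of beams and matrix through which aqueous humor leaves the eye, turnover of the matrix by MMPs is known to bear on resistance to outflow.

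Single cells were sequenced from 2 libraries. Control came from Foxc2 fl/fl mice, and NC-Foxc2-KO (NC-Foxc2-/- in the plots) from Foxc2 fl/fl mice that also carried Wnt1-Cre, a driver active in the neural crest lineage, so both libraries carried the floxed Foxc2 alleles and they differed in Cre. Each library was a pool of anterior segments from 4 to 6 mice of mixed strain, labelled 4 weeks old (3 to 4 weeks in the protocol), with the iris removed, and the study chose mutant mice with a moderate eye phenotype. The tissue was digested with collagenase and then trypsin before capture, for the same stated times in both groups.

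With 1 library per condition there was no replicate of either condition, and no test between them was possible. A level is the number of unique molecular identifiers (UMIs, 1 per captured RNA molecule) of a gene per 1e+06 UMIs of a cell class in a library (CPM). A ratio is the NC-Foxc2-KO level over the Control level, and the 95% intervals given with levels (exact Poisson) and ratios (exact binomial) cover counting error only, not the difference between mice, dissections or captures. A member is called higher or lower where the ratio reached 2 or 0.5 with at least 50 UMIs over both libraries. This rule rests on size alone and tests nothing. The 3′ counts do not allow the levels of different genes to be ranked, so each gene was compared with itself across classes.

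After a mitochondrial limit of 8%, 10773 Control and 10872 NC-Foxc2-KO cells remained, with medians of 7663 and 6517 UMIs per cell. The libraries shared 52 cell barcodes. TM-1, TM-2, TM-3, the uveal meshwork, fibroblasts and endothelial cells carry the study's own names, and the other classes were rebuilt by clustering and named from markers. Foxc2 itself was lower in NC-Foxc2-KO in all 4 meshwork classes, with ratios from 0.189 to 0.222, and in fibroblasts, at 0.0144, and pericyte-like cells, at 0.0188. Keratocyte-like cells went against the label: their Foxc2 level was 4.07 and 9.98 CPM in Control and NC-Foxc2-KO, a ratio of 2.45 (1.97 to 3.07), so in that class the targeted gene did not bear out the label of the library labelled NC-Foxc2-KO.

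Most members were present, and each library held enough UMIs to place 55 of them. Together the 84 members had 280732 UMIs in Control and 339341 in NC-Foxc2-KO, or 2347 and 3585 CPM of all UMIs, a comparison that moves with the share of each cell class. No UMI was found for 12 members (Adam6a, Adam6b, Adam20, Adam24, Adam25, Adam26a, Adam26b, Adam29, Adam34, Adam39, Mmp7 and Mmp21), and 13 had between 1 and 49 UMIs. Of the 84, 59 reached 50 UMIs over both libraries and 55 reached it in each. Those 55 were ranked over 18 classes with at least 50 cells in each library. A cluster led by Lars2 and mt-Atp8 (143 and 591 cells) was that large but left out for its low UMIs per cell. Too few NC-Foxc2-KO cells kept out conjunctival epithelial-like (447 and 25), corneal endothelial-like (168 and 9) and Schlemm's canal and lymphatic endothelial cells (84 and 23). A cluster led by Pcp2 and Sncb (7 and 30) was too small in both libraries.

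Among the ranked classes, the one with the highest level was the same in both libraries for 37 of the 55 members. Fibroblasts held 15 of these: Adam19, Adamts2, Adamts5, Adamts12, Adamts14, Adamts15, Adamtsl4, Mmp2, Mmp3, Mmp14, Mmp16, Mmp23, Mmp27, Reck and Timp2. Schwann cell-like cells held 6 (Adam10, Adam11, Adam23, Adamts20, Mmp15 and Mmp17). Pericyte-like cells held 4 ADAMTS genes (Adamts1, Adamts4, Adamts8 and Adamts9), and corneal and limbal epithelial-like cells held Adam28, Mmp10, Mmp13 and Mmp28. Of the 391 Control UMIs of Adam28, 180 were in corneal and limbal epithelial-like cells. Conjunctival epithelial-like cells were not ranked, so the order of these epithelial genes holds among the ranked classes only. A myeloid cluster led by Il1b and H2-Eb1 held Adam8, Mmp9 and Mmp25, and blood endothelial cells (Blood ECs) held Adam15 and Timp3. The remaining 3 were Adamts10 in TM-2, Adam17 in macrophage-like cells and Adamts19 in smooth muscle-like cells. Being highest did not always mean standing apart. Reck in fibroblasts was 1.01 times its TM-1 level in Control (0.799 to 1.27) and 1.07 times it in NC-Foxc2-KO (0.906 to 1.27), so the order of those classes was within counting error.

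**Figure D1:**
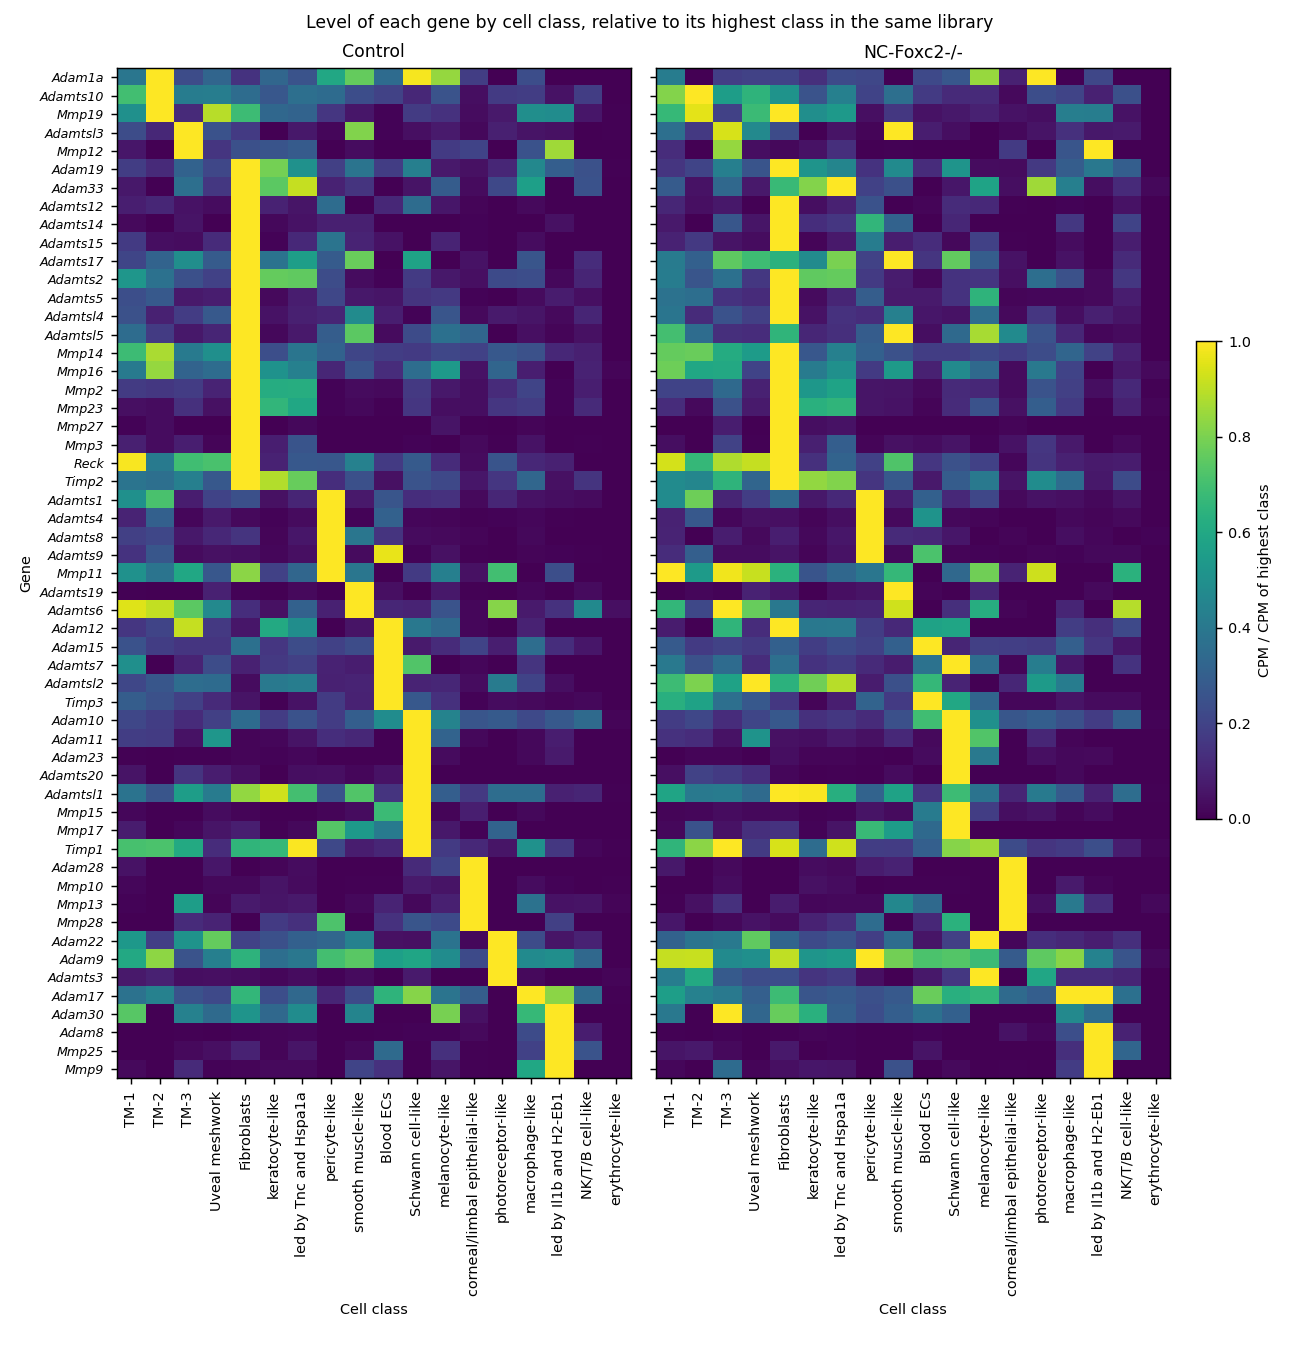
Levels of the 55 members with at least 50 UMIs in each library, 1 row per gene and 1 column per cell class, with Control in the left panel and NC-Foxc2-KO in the right. Colour is the CPM of a class divided by the gene's highest class in that library, from 0 (dark) to 1 (bright). In both panels the same 15 genes have their brightest cell in fibroblasts.

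Only 4 members were at least 5 times higher in their first class than in the next ranked class in both libraries. Mmp10, a stromelysin of epithelia, led in corneal and limbal epithelial-like cells. Its level there was 13.5 times that of the next ranked class in Control and 13.99 times in NC-Foxc2-KO. Of the 4071 Control UMIs of Mmp10, 3213 were in these cells. Conjunctival epithelial-like cells were not ranked, so this lead is over the ranked classes only. Mmp27, an MMP whose substrates are little known, was 18.3 and 12.2 times higher in fibroblasts. Adamts19 was 10.9 and 9.33 times higher in smooth muscle-like cells, where it had 53.3 and 46.1 CPM (203 and 88 UMIs). Adamts20 was 6.68 and 5.11 times higher in Schwann cell-like cells, at 14.9 and 17.6 CPM. Each of the 4 thus had the same leading class in both libraries.

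Between the libraries, Reck, Adam9 and Adamtsl1 were higher in NC-Foxc2-KO by the rule in more than 1 meshwork class. Of the meshwork classes, Mmp2, Adamts5 and Mmp9 were higher in TM-3 alone, and Mmp12 in TM-1 alone. Fibroblasts had the most lower members, among them Mmp23, Mmp27, Adamts14 and Adamtsl5. In TM-3, 5 of 35 members tested were higher and 1 was lower, against 3.64% and 2.29% of the 10225 genes tested. In TM-1, 3 of 27 were higher and 1 lower, against 2.24% and 1.7% of genes. In TM-2, 2 of 16 were higher and 1 lower, against 2.77% and 1.88%. In the uveal meshwork, 1 of 29 was higher and 4 lower, against 2.06% and 1.49%. Fibroblasts had 4 of 33 higher and 7 lower, against 4.84% and 6.09%, and keratocyte-like cells 4 of 40 higher and 3 lower, against 2.27% and 1.26%. The median log2 ratio of the members tested was 0.45 in TM-3, where that of all genes tested was 0.06, and 0.20 in TM-1 (all genes -0.02), 0.28 in TM-2 (-0.01), 0.16 in the uveal meshwork (0.06), 0.10 in fibroblasts (-0.02) and 0.04 in keratocyte-like cells (0.01). Counts this small say nothing about the list as a whole, and several rest on a few cells, as given gene by gene.

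**Figure D2:**
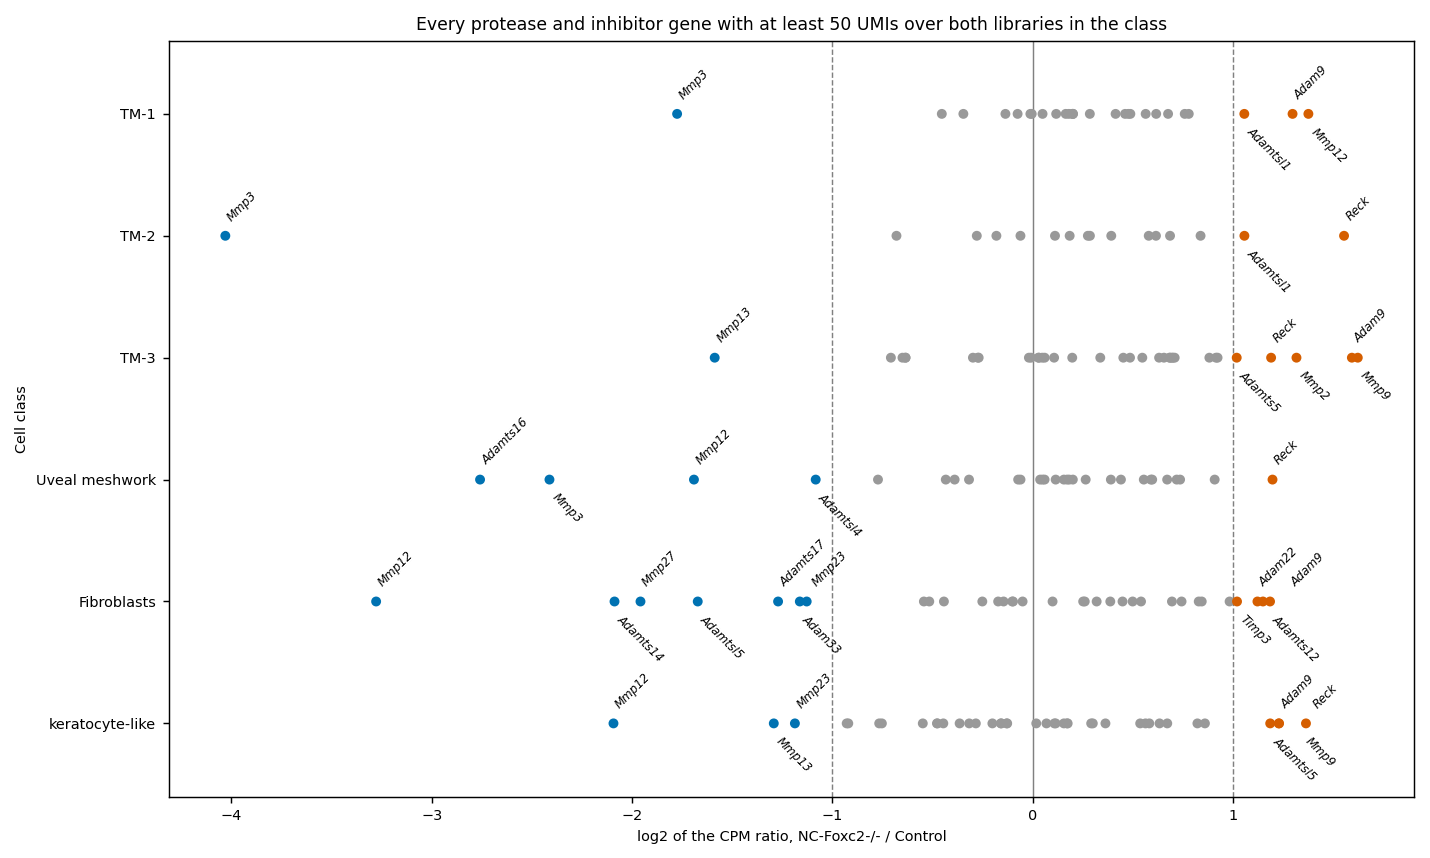
Ratios of NC-Foxc2-KO to Control on a log2 axis for every member with at least 50 UMIs in 6 classes (keratocyte-like cells, fibroblasts, uveal meshwork and TM-3, TM-2, TM-1), 1 point per gene. Members past a ratio of 2 or 0.5 are named, and fibroblasts hold the most named genes below the lower line, with 7.

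Among the gelatinases, which cut denatured collagens and basement membrane, Mmp2 was the member with a broad stromal presence. Its level in fibroblasts was 940 and 1230 CPM in Control and NC-Foxc2-KO, a ratio of 1.31 (1.25 to 1.36). In keratocyte-like cells it was 583 and 650 CPM. TM-3 had 168 CPM in Control (1052 UMIs) and 419 CPM in NC-Foxc2-KO (3120 UMIs), a ratio of 2.49 (2.32 to 2.67), the only one of the meshwork classes past 2. The other meshwork ratios were smaller, at 1.61 (1.31 to 1.97) in TM-2, 1.53 (1.37 to 1.71) in TM-1 and 1.201 (1.05 to 1.37) in the uveal meshwork. In TM-3 the RNA was spread over cells, with a UMI in 470 of 852 Control and 816 of 1142 NC-Foxc2-KO cells at median depths of 6988 and 6119 UMIs. In erythrocyte-like cells, which should lack it, Mmp2 had 1.60 and 5.79 CPM, with a UMI in 6 of 976 and 15 of 647 cells. The study named Mmp2 from these same samples, so its direction here is not independent evidence.

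TM-3 was not of 1 kind, and its Mmp2 ratio came partly from its makeup. Clustering split nearly all of its cells between a cluster led by Sfrp2 and Sfrp4, with 175 Control and 555 NC-Foxc2-KO cells, and a cluster led by Myoc and Csf3, with 662 and 559 cells. Mmp2 was at 375 and 743 CPM in the first, a ratio of 1.98 (1.77 to 2.22), and at 130 and 188 CPM in the second, a ratio of 1.45 (1.31 to 1.61). Both ratios were below the 2.49 of TM-3 as a whole, since the first cluster, which had more Mmp2 in either library, made up more of the NC-Foxc2-KO cells. Reck had a ratio of 1.27 (0.922 to 1.79) in the first cluster, which includes no difference, and of 2.86 (2.33 to 3.54) in the second, and Adam9 had 1.88 and 3.35. Adamts5, at 2.03 in TM-3 as a whole, was at 1.28 and 1.11 within the clusters. For these genes the difference between the clusters was not tested.

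Mmp9, the other gelatinase and a protease of neutrophils and macrophages, was highest in the myeloid cluster led by Il1b and H2-Eb1, at 20.4 and 21.0 CPM (21 and 34 UMIs). In TM-3 it was at 2.40 and 7.38 CPM, a ratio of 3.08, but 50 of the 55 NC-Foxc2-KO UMIs lay in 1 cell. The summed level of the 7 neutrophil markers in TM-3 was 17.4 and 74.5 CPM, and its part in the Mmp9 ratio was not tested. In keratocyte-like cells Mmp9 was at 0.528 and 1.24 CPM, a ratio of 2.35, with the neutrophil markers at 10.1 and 26.8 CPM.

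Mmp2 was also past the rule in perivascular and muscle-like cells, from low levels. In pericyte-like cells it had 8.65 CPM in Control (14 UMIs) and 67.3 CPM in NC-Foxc2-KO (163 UMIs), a ratio of 7.78 (4.51 to 14.5). Of the NC-Foxc2-KO UMIs, 60.1% were in the top 1% of cells. The summed keratocyte markers of these cells were 323 and 571 CPM and the fibroblast markers 106 and 257 CPM, so stromal markers moved the same way, and their part in the result was not tested. Smooth muscle-like cells had 26.0 and 63.4 CPM of Mmp2, a ratio of 2.44, with keratocyte markers at 596 and 863 CPM.

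Mmp14, a membrane-type MMP that activates the Mmp2 precursor, differed little. In fibroblasts it was at 244.5 and 227.8 CPM, a ratio of 0.932 (0.854 to 1.02), and in TM-1 at 168 and 173.5 CPM, a ratio of 1.035 (0.918 to 1.17). TM-2 had 214 CPM in Control, within counting error of the fibroblast level (fibroblasts 1.14 times higher, 0.980 to 1.34), and 176 in NC-Foxc2-KO. TM-3 had the largest Mmp14 ratio of the meshwork, 1.40 (1.27 to 1.55), from 99.9 to 139.8 CPM.

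The next group shares a place in the genome. In the mm10 build, 9 of the Mmp members lie on chromosome 9 between positions 7272514 and 7699585, a stretch of 427 kb: Mmp13, Mmp12, Mmp1b, Mmp3, Mmp10, Mmp8, Mmp27, Mmp20 and Mmp7. Mmp1a was not analysed here. Only 5 of them reached 50 UMIs, all on the plus strand: Mmp13 (7272514 to 7283331), Mmp12 (7344381 to 7369499), Mmp3 (7445822 to 7455975), Mmp10 (7502352 to 7510240) and Mmp27 (7571396 to 7581885). Neighbours did not share a cell class. Among the ranked classes, Mmp13 and Mmp10 were highest in corneal and limbal epithelial-like cells, and Mmp3 and Mmp27 in fibroblasts. Mmp12 was highest in TM-3 in Control and in the myeloid cluster in NC-Foxc2-KO.

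Promoters of this cluster are known for sites of the AP-1 factors Fos and Jun, which are induced by stress and by dissociation of tissue, so the 120 bases before the start site of the 5 detected genes are shown, in RefSeq sequence of build GRCm38.p6, plus strand, in lower case with each match to the AP-1 motif TGANTCA (7 bases, either strand; it equals its own reverse complement apart from the free middle base) in capitals:
Mmp13, chr9:7272394-7272513: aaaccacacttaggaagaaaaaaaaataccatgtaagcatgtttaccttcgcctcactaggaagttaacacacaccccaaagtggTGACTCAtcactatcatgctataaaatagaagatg
Mmp12 (second listed start), chr9:7347254-7347373: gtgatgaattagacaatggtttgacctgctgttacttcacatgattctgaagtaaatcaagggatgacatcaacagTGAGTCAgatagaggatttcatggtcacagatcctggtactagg
Mmp3, chr9:7445702-7445821: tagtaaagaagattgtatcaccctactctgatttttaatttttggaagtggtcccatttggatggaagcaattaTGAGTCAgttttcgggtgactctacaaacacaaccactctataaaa
Mmp10, chr9:7502222-7502341: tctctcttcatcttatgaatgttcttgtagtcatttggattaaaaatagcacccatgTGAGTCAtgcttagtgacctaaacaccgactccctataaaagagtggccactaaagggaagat
Mmp27, chr9:7571276-7571395: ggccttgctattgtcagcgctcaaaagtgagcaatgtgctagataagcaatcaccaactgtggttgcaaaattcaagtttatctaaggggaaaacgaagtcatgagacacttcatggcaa
The motif began 35 bases before the start in Mmp13, 44 in Mmp12, 46 in Mmp3 and 63 in Mmp10, and these letters were absent from this window of Mmp27 and of the first listed start of Mmp12. Within 250 bases before the start, 11 of the 58 promoters listed for 53 members held the motif (19.0%), and 2217 of all 32851 promoters did (6.75%). Of the 11 members, 7 were of the chromosome 9 cluster. The motif was not confined to detected genes: of its carriers, Mmp7, Adam20, Adam25 and Adam29 had 0 UMIs, Mmp20 had 1 and Mmp1b had 14. A match describes letters and not a bound site. The summed level of 16 immediate early genes, Fos and Jun among them, was 23872 CPM in Control and 20032 in NC-Foxc2-KO in TM-1, 14992 and 10058 in TM-3, and 9163 and 9161 in fibroblasts. That of 7 heat shock genes was 9704 and 13884 CPM in TM-1, 6731 and 10286 in TM-3 and 7140 and 11042 in fibroblasts. The immediate early sum was thus lower in NC-Foxc2-KO in TM-1 and TM-3 and nearly equal in fibroblasts. The heat shock sum was higher in each of these classes. It differed less in the uveal meshwork, at 10085 and 9712 CPM, and in keratocyte-like cells, at 3182 and 3313 CPM. The part of both lists in the levels of these proteases was not tested.

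Mmp3, stromelysin 1, had its highest level in fibroblasts, at 2188 CPM in Control (2138 to 2239) and 1501 CPM in NC-Foxc2-KO (1470 to 1533), a ratio of 0.686. There it was in 263 of 433 and 430 of 962 cells, at median depths of 7495 and 5836 UMIs, against 7 of 976 and 11 of 647 erythrocyte-like cells. In the meshwork the ratios went in both directions: 0.0612 (0.0193 to 0.1499) in TM-2, 0.188 (0.114 to 0.295) in the uveal meshwork, 0.292 (0.244 to 0.348) in TM-1 and 1.63 (1.52 to 1.76) in TM-3. The 3 lower ratios came from a handful of Control cells. In TM-1, 91.0% of the 702 Control UMIs lay in 7 cells, and leaving out the 1% of cells with the most Mmp3 UMIs in each library gave a ratio of 1.48. In the uveal meshwork the ratio without those cells was 2.79, the direction again turned, and in TM-2, where 58 of 68 Control UMIs were in 1 cell, it was 0.414. In TM-3 it was 3.22, and in fibroblasts, where the RNA was spread, 0.692.

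Mmp3 split the TM-3 cells most sharply of the members there. In the cluster led by Sfrp2 and Sfrp4 it was at 983 and 507 CPM in Control and NC-Foxc2-KO, a ratio of 0.516, and in the cluster led by Myoc and Csf3 it was at 33.8 and 122 CPM, a ratio of 3.61. The ratio of 1.63 for TM-3 as a whole was thus the sum of opposite differences and of a different makeup. Mmp3 is one of the leading genes of the first cluster, and the study named it from these samples, so its levels there are a description. Outside these classes Mmp3 was past the rule upward from small counts. In Blood ECs 81 NC-Foxc2-KO UMIs stood against 4, with 70 of the 81 in 1 cell, and the ratio of 18.1 was 3.62 without the top 1% of cells. In smooth muscle-like cells 126 stood against 16, with 75 in 1 cell, and the ratio of 15.7 was 8.68 without those cells. In Schwann cell-like cells the Mmp3 ratio of 3.53 was 0.198 with called doublets left out, the opposite direction.

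**Figure D3:**
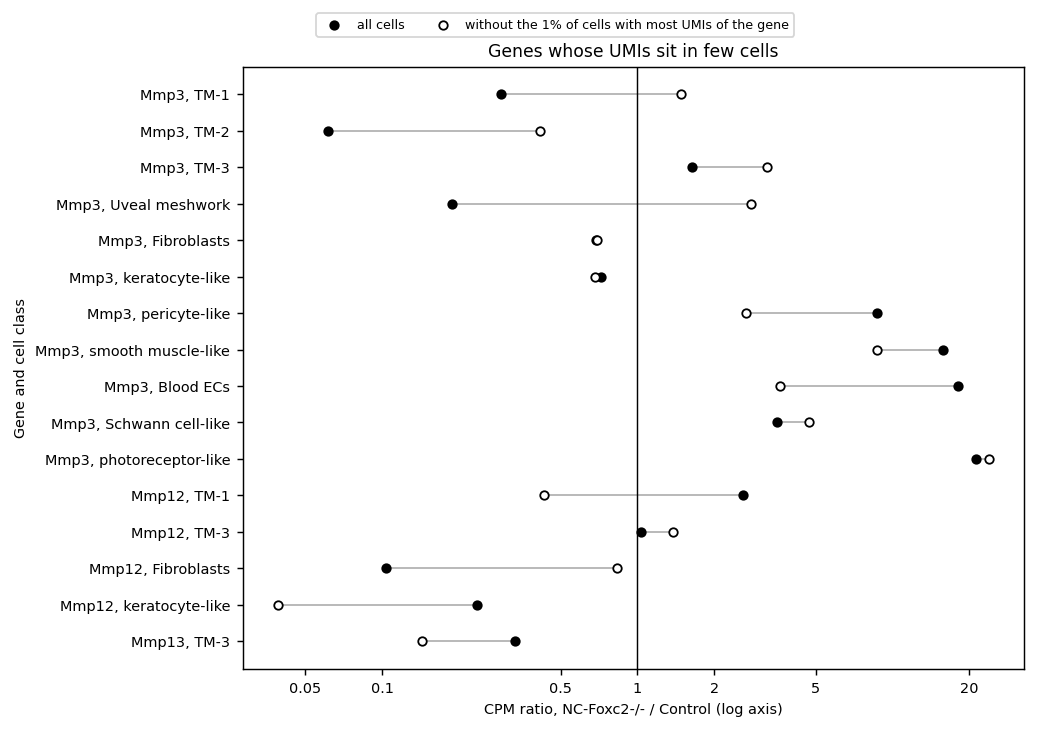
NC-Foxc2-KO over Control ratios of Mmp3, Mmp12 and Mmp13 on a log axis, for each class shown once with all cells and once without the 1% of cells with the most UMIs of that gene in each library. Mmp3 in TM-1 moves from 0.292 to 1.48 and in the uveal meshwork from 0.188 to 2.79, while in fibroblasts it stays at 0.686 and 0.692.

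Mmp12, macrophage metalloelastase, reached levels in TM-3 like those of a myeloid cluster, from few cells. TM-3 had 134 and 138 CPM in Control and NC-Foxc2-KO, from 39 of 852 and 64 of 1142 cells, and the myeloid cluster led by Il1b and H2-Eb1 had 115 and 164 CPM. Macrophage-like cells had 33.6 and 43.1 CPM, and no Mmp12 UMI was found in erythrocyte-like or NK/T/B cell-like cells. The 15 macrophage markers summed to 50.2 and 64.0 CPM in TM-3, against 26192 and 18881 CPM in macrophage-like cells. In keratocyte-like cells Mmp12 was at 34.8 and 8.16 CPM (924 and 310 UMIs), a ratio of 0.234, from 44 and 37 cells. In fibroblasts it was at 32.5 and 3.35 CPM (108 and 20 UMIs), a ratio of 0.103, with 7 and 6 cells behind it, and without the top 1% of cells the ratio was 0.833. In the uveal meshwork the ratio was 0.310, from 8 and 4 cells, and in TM-1 it was 2.60, from 5 and 6 cells, and 0.433 without the top 1%. Each of these Mmp12 ratios therefore compared a few cells per library. Its last bases overlap Mmp1b on the other strand, and no source used here states whether counting used strand.

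Mmp13, collagenase 3, was chiefly epithelial. Corneal and limbal epithelial-like cells had 59.4 and 78.3 CPM (1896 and 739 UMIs), with a UMI in 321 of 1586 and 92 of 529 cells at median depths of 18551 and 18327 UMIs. In TM-3 it was at 33.1 and 11.01 CPM, a ratio of 0.333, from 25 and 18 cells, and in keratocyte-like cells at 3.36 and 1.37 CPM, a ratio of 0.408. In smooth muscle-like cells a ratio of 27.6 came from 68 UMIs in 1 cell of NC-Foxc2-KO, and without called doublets it was 0.508. Mmp10 in the epithelial cells was at 101 CPM in Control (3213 UMIs) and 97.7 CPM in NC-Foxc2-KO (922 UMIs), a ratio of 0.9703. Mmp27 in fibroblasts was at 31.9 and 8.21 CPM (106 and 49 UMIs), a ratio of 0.257 (0.180 to 0.364), lower in the mutant library in the class that it marked.

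Mmp23, a membrane-bound MMP without the usual cysteine switch, was lower in NC-Foxc2-KO in the stromal classes with the most of it. In fibroblasts it was at 214 CPM in Control (199 to 231) and 98.1 CPM in NC-Foxc2-KO (90.3 to 106), a ratio of 0.457 (0.409 to 0.511). In keratocyte-like cells it was at 141.5 and 62.1 CPM, a ratio of 0.439 (0.417 to 0.462). Macrophage-like cells, at 38.5 and 16.8 CPM, and Schwann cell-like cells, at 33.9 and 12.2 CPM, had ratios of 0.438 and 0.361. With called doublets left out these were 0.969, outside the rule, and 0.106. TM-3, with 30.0 and 24.4 CPM, had a smaller difference, and TM-1, with 8.91 and 12.3 CPM, the opposite sign. Of the 9 classes with at least 50 Mmp23 UMIs, 8 had a ratio below 1, and the fibroblast and keratocyte-like ratios stayed between 0.388 and 0.473 under all processing alternatives that gave a value. In fibroblasts, where Mmp23, Mmp27, Adamts14 and Adamtsl5 were lower, the fibroblast markers summed to 10643 and 6877 CPM in Control and NC-Foxc2-KO and the keratocyte markers to 1928 and 2579 CPM, and their part in the 4 ratios was not tested.

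The ADAMs with most UMIs were Adam10, Adam15, Adam9 and Adam19. Adam9, a surface protease that sheds growth factor precursors and receptors, had a ratio above 1 in all 14 classes with at least 50 UMIs, from 1.46 to 3.02, and was past 2 in 10 of them. In keratocyte-like cells it was at 12.1 CPM in Control (322 UMIs) and 28.4 CPM in NC-Foxc2-KO (1080 UMIs), a ratio of 2.34 (2.07 to 2.66). The meshwork ratios were 3.02 (2.22 to 4.16) in TM-3, 2.46 (1.84 to 3.30) in TM-1, 1.88 (1.39 to 2.54) in the uveal meshwork and 1.79 (1.11 to 2.94) in TM-2. Classes outside the neural crest stroma went the same way, with 2.79 in macrophage-like cells, 2.07 in Blood ECs and 2.05 in corneal and limbal epithelial-like cells. With each cell thinned to 1000 UMIs these Adam9 ratios were 1.85, 0.919 and 1.69, outside the rule. Of the 8172 genes with at least 50 UMIs in 8 or more classes, 30 were at least 2 times higher in 8 or more, and Adam9 was the only one of 24 such members. A difference of the same sign in nearly every class of a library cannot be told apart from a difference between the pools of mice or the captures. In erythrocyte-like cells Adam9 had 0 and 3 UMIs.

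Adam10, the main sheddase of Notch and cadherins, was highest in Schwann cell-like cells, at 79.4 and 108 CPM, followed by Blood ECs, at 38.5 and 74.8 CPM with a ratio of 1.94. The meshwork classes held 9.91 to 17.0 CPM of Adam10 in Control and 13.6 to 23.2 CPM in NC-Foxc2-KO. Adam15 was highest in Blood ECs, at 132 and 116 CPM. Adam19, a protease that sheds neuregulin, was at 52.1 and 71.1 CPM in fibroblasts, at 41.2 and 36.9 CPM in keratocyte-like cells and at 16.3 and 30.7 CPM in TM-3, where the ratio was 1.89 (1.49 to 2.41). Its TM-1 ratio was 1.15 (0.686 to 1.92), which included no difference. Adam19 too was named by the study from these samples. Adam22, an ADAM without a catalytic site, was at 3.31 and 7.21 CPM in fibroblasts (11 and 43 UMIs), a ratio of 2.18 (1.10 to 4.68), and Adam33, named to complete the count of lower members there, was at 25.9 and 11.6 CPM, a ratio of 0.447.

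**Figure D4:**
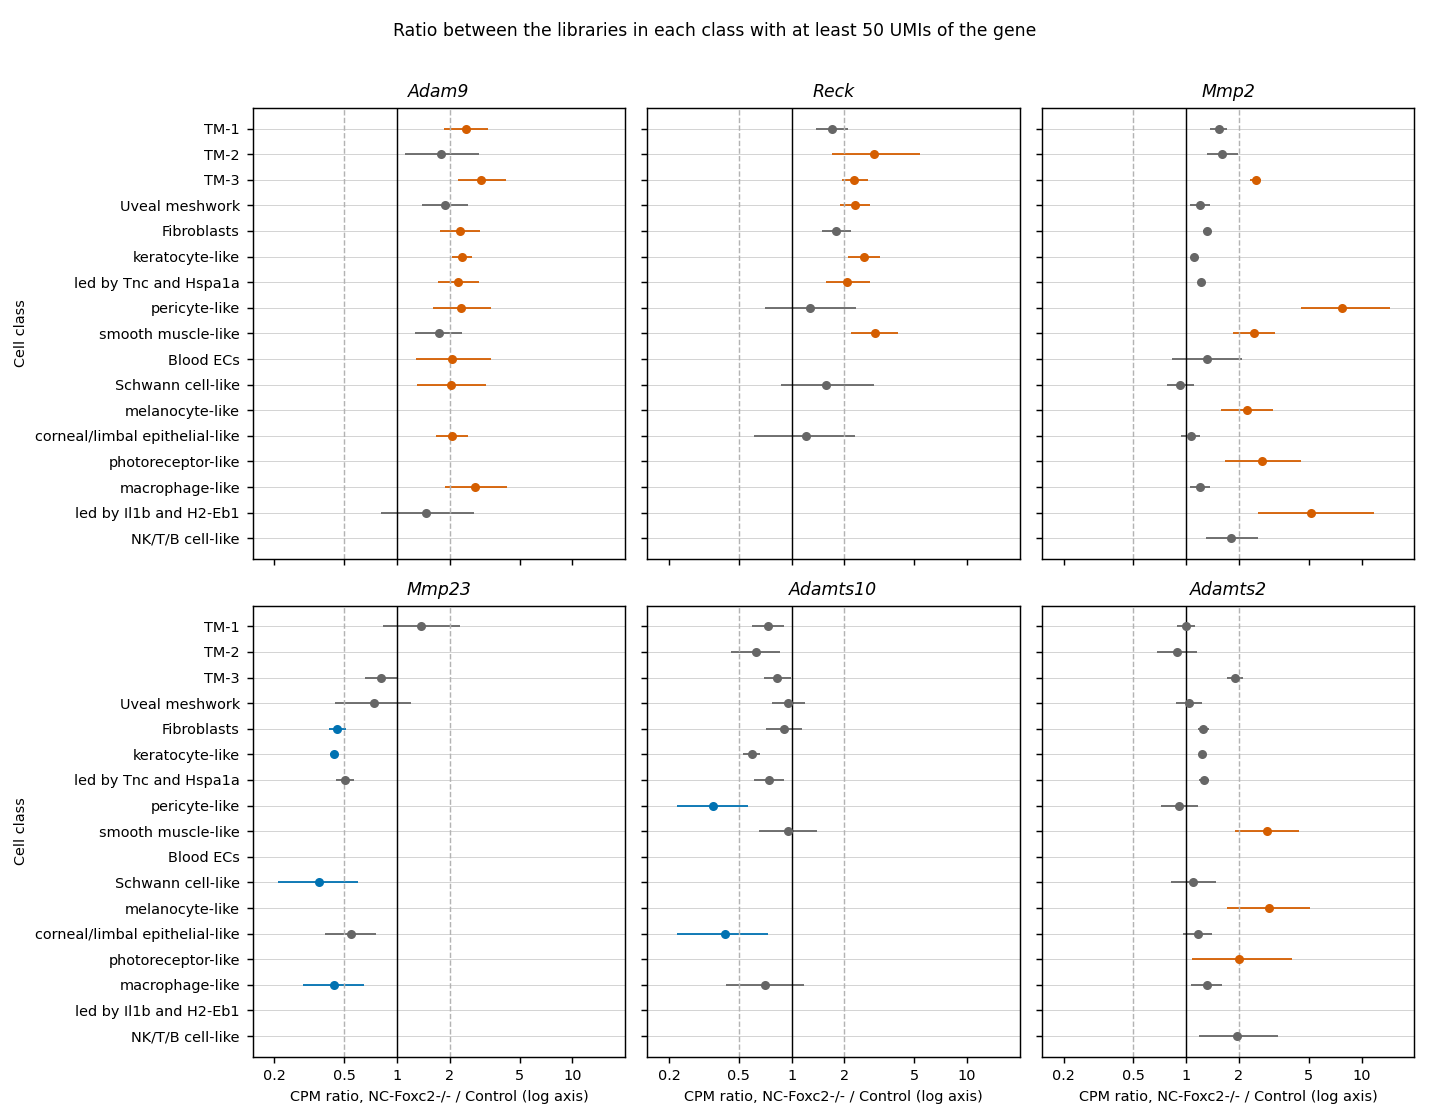
NC-Foxc2-KO over Control ratios of Adam9, Reck, Mmp2, Mmp23, Adamts10 and Adamts2, 1 panel per gene, in each class with at least 50 UMIs of the gene, on a log axis with 95% intervals for counting error. All 14 Adam9 and all 11 Reck points lie above 1 and all 11 Adamts10 points below it; orange marks ratios of at least 2, blue ratios of at most 0.5, and dashed lines those limits.

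Among the ADAMTS proteinases that cut aggrecan and versican, Adamts1, Adamts4 and Adamts9 were highest in pericyte-like cells in both libraries. Adamts1 was there at 1954 and 2340 CPM, and next in TM-2, at 1392 and 1827 CPM, and TM-1, at 982 and 1127 CPM. Its ratio was above 1 in each main class: 1.31 (1.22 to 1.41) in TM-2, 1.15 (1.09 to 1.204) in TM-1, 1.57 (1.46 to 1.70) in TM-3, 1.08 (1.01 to 1.16) in the uveal meshwork, 1.67 (1.58 to 1.77) in fibroblasts and 1.77 (1.68 to 1.86) in keratocyte-like cells, none of them past the rule of size. It was past the rule in NK/T/B cell-like cells, at 55.1 and 128 CPM, where the 8 keratocyte markers summed to 2374 and 2818 CPM, and had 2.67 and 4.25 CPM in erythrocyte-like cells. Adamts4 was at 705 and 837 CPM in pericyte-like cells and at 218 and 431 CPM in Blood ECs, a ratio of 1.98 (1.72 to 2.28). Adamts9 was at 337 and 449 CPM in pericyte-like cells and at 326 and 321 CPM in Blood ECs, which did not differ from pericyte-like cells beyond counting error in Control.

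Adamts5, the main aggrecanase of cartilage, was instead a fibroblast gene, at 163 and 152 CPM. In TM-3 it was at 10.9 and 22.01 CPM (68 and 164 UMIs), a ratio of 2.03 (1.52 to 2.73), past the rule there and not in TM-1, at 1.48 (1.17 to 1.86), or TM-2, at 1.21 (0.812 to 1.82). In fibroblasts the Adamts5 ratio was 0.934 (0.839 to 1.041). Both Adamts1 and Adamts5 were named by the study from these samples.

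Of the procollagen N-proteinases, which trim fibrillar procollagens, Adamts2 and Adamts14 were also stromal and differed in opposite directions in fibroblasts. Adamts3, the other gene of this group, was highest from few UMIs in other classes. These were photoreceptor-like cells in Control (55.9 CPM, 10 UMIs) and melanocyte-like cells in NC-Foxc2-KO (9.89 CPM, 4 UMIs). Adamts2 was at 325 and 405 CPM in fibroblasts, a ratio of 1.25 (1.16 to 1.34), and at 248.5 and 306 CPM in keratocyte-like cells. In TM-3 it was at 78.9 and 149.6 CPM, a ratio of 1.90 (1.70 to 2.11), while in TM-1 the ratio was 0.997 (0.884 to 1.12). Adamts14 was at 21.4 and 5.03 CPM in fibroblasts (71 and 30 UMIs), a ratio of 0.235 (0.148 to 0.365).

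Adamts10, a proteinase bound to fibrillin microfibrils, had a ratio below 1 in all 11 classes with at least 50 UMIs, from 0.358 to 0.959. Its first class was TM-2, with 99.1 CPM in Control (96 UMIs) and 61.9 CPM in NC-Foxc2-KO (72 UMIs), a ratio of 0.624 (0.453 to 0.856), and TM-1 followed with 69.1 and 50.5 CPM, a ratio of 0.730 (0.591 to 0.899). Pericyte-like cells had 34.6 and 12.4 CPM, a ratio of 0.358 (0.222 to 0.567), which was past the rule, as was 0.419 (0.222 to 0.732) in corneal and limbal epithelial-like cells, where 113 and 14 UMIs were found. With called doublets left out the epithelial ratio was 0.901, outside the rule. In the uveal meshwork, TM-3 and fibroblasts the ratios were 0.959, 0.827 and 0.904.

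Other ADAMTS genes differed in single classes. Adamts12 was at 19.3 and 42.7 CPM in fibroblasts (64 and 255 UMIs), a ratio of 2.22 (1.68 to 2.97), and Adamts17, named to complete the count there, was at 12.9 and 5.36 CPM, a ratio of 0.414. Adamts16 was at 15.7 CPM in the uveal meshwork of Control (93 UMIs) and at 2.32 CPM in NC-Foxc2-KO (8 UMIs), a ratio of 0.148 (0.0619 to 0.303). It was found in 59 of 1025 and 6 of 592 uveal meshwork cells at median depths of 5454 and 5442 UMIs, and in no erythrocyte-like or NK/T/B cell-like cell. With classes rebuilt by clustering in place of the study's names the Adamts16 ratio was 0.521, outside the rule.

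Among the ADAMTS-like proteins, which lack the protease domain and bind microfibrils, Adamtsl5 differed in both directions. It was at 71.05 CPM in Control fibroblasts (62.3 to 80.7) and 22.3 CPM in NC-Foxc2-KO fibroblasts (18.7 to 26.4), a ratio of 0.314 (0.252 to 0.390). In keratocyte-like cells, where it was scarce, it was at 1.62 and 3.69 CPM (43 and 140 UMIs), a ratio of 2.27 (1.61 to 3.28). The pericyte-like ratio was 0.472, and in TM-1, at 25.1 and 23.8 CPM, it was 0.949 (0.684 to 1.31). Adamtsl1 was higher in TM-1, at 23.8 and 49.4 CPM with a ratio of 2.08 (1.58 to 2.75), and in TM-2, at 16.5 and 34.4 CPM with a ratio of 2.08 (1.14 to 3.98), and not in TM-3, where the ratio was 1.02 (0.851 to 1.23). Adamtsl4, a gene of the ciliary zonule, was at 22.1 and 10.4 CPM in the uveal meshwork (131 and 36 UMIs), a ratio of 0.472 (0.317 to 0.687), and at 1.09 (0.759 to 1.55) and 0.994 (0.740 to 1.34) times its Control level in TM-1 and TM-3. Adamtsl3 in TM-3 was at 64.1 and 53.2 CPM.

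Of the inhibitors, Timp3, which stays bound to the matrix, was highest in Blood ECs, at 3.38 times its TM-1 level in Control and 1.59 times in NC-Foxc2-KO. There it was at 5320 CPM in Control (5199 to 5443) and 3498 CPM in NC-Foxc2-KO (3405 to 3593), a ratio of 0.658 (0.635 to 0.681). The makeup of Blood ECs differed between the libraries. Of 123 Control and 230 NC-Foxc2-KO cells, the study's subcluster BEC-5 held 43 and 14 and its BEC-2 held 12 and 59. The part of this in the Blood EC ratios of Timp3, Timp1, Adam9, Adam10, Adamts4 and Mmp3 was not tested. In every main class its ratio was above 1: 2.03 (1.88 to 2.18) in fibroblasts, 1.55 (1.43 to 1.69) in keratocyte-like cells, 1.53 (1.43 to 1.64) in TM-2, 1.51 (1.44 to 1.59) in the uveal meshwork, 1.40 (1.35 to 1.45) in TM-1 and 1.26 (1.22 to 1.304) in TM-3. Fibroblasts, at 278 and 563.5 CPM, were alone past the rule of size among these. The TM-3 ratio hid opposite ratios within it, 0.738 in the cluster led by Sfrp2 and Sfrp4 and 1.53 in the cluster led by Myoc and Csf3. Erythrocyte-like cells had 3.47 and 5.41 CPM of Timp3.

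Timp2, which also takes part in activating the Mmp2 precursor with Mmp14, had its highest levels in fibroblasts, at 1981 and 1913 CPM, and keratocyte-like cells, at 1752 and 1601 CPM. Its meshwork levels were lower and its ratios there above 1, at 1.46 (1.41 to 1.51) in TM-3, 1.22 (1.11 to 1.34) in TM-2, 1.22 (1.16 to 1.29) in TM-1 and 1.15 (1.09 to 1.21) in the uveal meshwork. In TM-3 it was thus at 853 and 1247 CPM, beside 168 and 419 CPM of Mmp2, each compared with itself. In photoreceptor-like cells Timp2 had a ratio of 2.97 from 56 and 318 UMIs, which at a clustering resolution of 0.4 was 0.410, the opposite direction. The keratocyte markers in those cells summed to 3642 and 8649 CPM, and their part in the Timp2 ratio was not tested.

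Timp1, an inhibitor induced by growth factors and inflammation, was found in Schwann cell-like cells and over the stroma. Schwann cell-like cells had 193 CPM in Control (284 UMIs) and 155 CPM in NC-Foxc2-KO. The Control level was the highest of the ranked classes but within counting error of the cluster led by Tnc and Hspa1a, at 192 CPM. Of the cells of that cluster, 35.1% in Control and 36.2% in NC-Foxc2-KO were called doublets. TM-3 had 117 and 190 CPM in Control and NC-Foxc2-KO, a ratio of 1.62 (1.48 to 1.77), and fibroblasts 126 and 179 CPM, a ratio of 1.41 (1.26 to 1.59). TM-1 and TM-2 had ratios of 0.910 (0.792 to 1.044) and 1.14 (0.904 to 1.43), both within counting error of 1. Keratocyte-like cells had 128 and 67.4 CPM, a ratio of 0.525 (0.499 to 0.553), close to the lower limit of the rule but not past it. Blood ECs had 21.1 and 57.2 CPM (29 and 88 UMIs), a ratio of 2.72 (1.77 to 4.29), which was 1.71 with rebuilt cluster names. In macrophage-like cells the ratio was 0.329 (0.250 to 0.429), with 77.5% of the 200 Control UMIs in the top 1% of cells, and without those cells it was 0.729, outside the rule. In melanocyte-like cells it was 4.94 (3.41 to 7.17), from 33.1 to 163 CPM. Melanocyte markers in that class summed to 27040 and 5366 CPM and pigment epithelial markers to 5059 and 10743 CPM, so its makeup differed between the libraries, and its part in the Timp1 ratio was not tested.

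Timp4, an inhibitor with a restricted expression in adult tissues, was not detected in Blood ECs of Control at this depth and was found in those of NC-Foxc2-KO. Blood ECs had 0 UMIs in Control and 122 UMIs in NC-Foxc2-KO, 79.3 CPM (65.9 to 94.7). With 3 counts put in for the 0, the ratio was 36.4, a value that moves with that choice. With each cell thinned to 1000 UMIs it was 5.15. The 122 UMIs came from 24 of 230 cells, with up to 19 in a cell, against 0 of 123 Control cells, at median depths of 5382 and 8749 UMIs. By the study's subclusters, BEC-2 held 91 of the 122 UMIs in 13 of its 59 cells, and its 12 Control cells held none. The subcluster named NC-Foxc2-/- ECs by the study, which had no Control cell, held 18 UMIs in 7 of 22 cells. BEC-2 made up more of the NC-Foxc2-KO endothelial cells, so a different mix of vessels and a different level per vessel cannot be told apart. Pericyte-like cells had 2 and 145 Timp4 UMIs, 1.24 and 59.9 CPM, a ratio of 48.4 (13.2 to 404), from 1 of 379 and 34 of 534 cells, with 64.8% of the NC-Foxc2-KO UMIs in the top 1% of cells. The endothelial markers in the pericyte-like cells summed to 310 and 111 CPM in Control and NC-Foxc2-KO, and the pericyte markers to 8778 and 6303 CPM. The smooth muscle markers there summed to 12956 and 17525 CPM and the keratocyte markers to 323 and 571 CPM. The makeup of this class thus differed, and its part in the Timp4 ratio was not tested. In fibroblasts, erythrocyte-like and NK/T/B cell-like cells no Timp4 UMI was found in either library, and the uveal meshwork had 23 and 9.

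**Figure D5:**
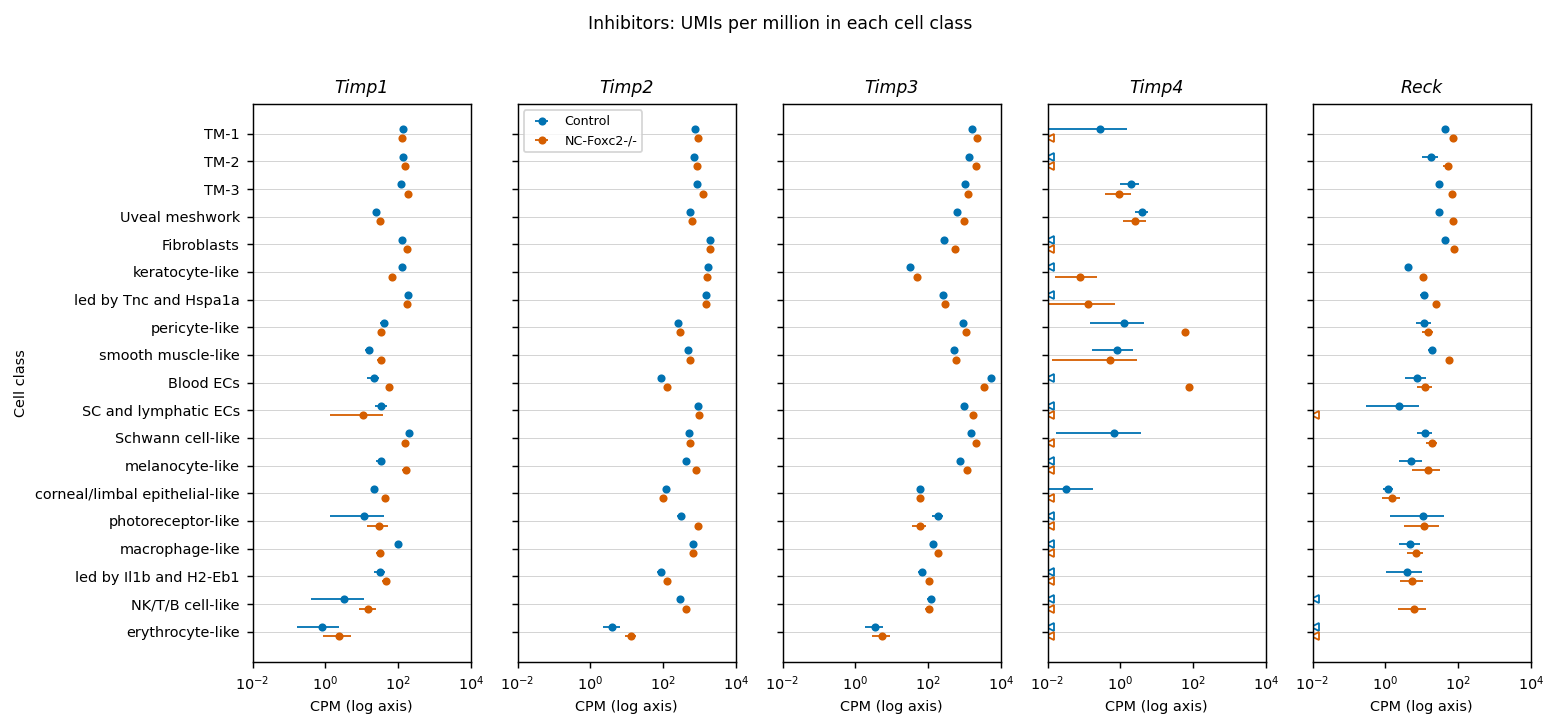
Levels of Timp1, Timp2, Timp3, Timp4 and Reck in CPM on a log axis, 1 panel per gene, for each library in 19 cell classes, with exact Poisson intervals and open triangles at the left edge for 0 UMIs. Timp3 stands highest in Blood ECs, at 5320 and 3498 CPM, and Timp4 is at the edge in Control Blood ECs and at 79.3 CPM in NC-Foxc2-KO.

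Reck, the membrane-anchored inhibitor, had a ratio above 1 in all 11 classes with at least 50 UMIs, from 1.21 to 2.97, and was past the rule in 6. In fibroblasts it was at 43.1 and 77.3 CPM, a ratio of 1.79 (1.48 to 2.18), and in TM-1 at 42.7 and 72.2 CPM, a ratio of 1.69 (1.37 to 2.10). The uveal meshwork had 30.7 and 70.4 CPM, a ratio of 2.29 (1.88 to 2.79), TM-3 29.9 and 68.2 CPM, a ratio of 2.28 (1.93 to 2.71), and TM-2 17.6 and 51.6 CPM (17 and 60 UMIs), a ratio of 2.94 (1.69 to 5.37). Smooth muscle-like cells, at 18.9 and 56.1 CPM, had 2.97 (2.18 to 4.06), and keratocyte-like cells, at 4.18 and 10.8 CPM, had 2.57 (2.08 to 3.21). Pericyte-like cells had 19 and 36 UMIs, a ratio of 1.27, and erythrocyte-like cells none.

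Around the members, 20 activators and regulators of MMPs and 16 other matrix proteases were measured as the rest of the pathway. In TM-3 none of the 18 activators and regulators tested was past the rule. In fibroblasts, where 4.84% of all genes were higher, Plau, Plaur, Cd44 and A2m were past the rule upward. Plau, the urokinase that starts plasmin formation, had 12 and 67 UMIs, a ratio of 3.11, and Plaur, its receptor, was at 54.2 and 195.6 CPM, a ratio of 3.61. Cd44, a hyaluronan receptor that docks MMPs, was at 191.8 and 400.9 CPM, a ratio of 2.09. A2m, a trap for proteases, was at 19.3 and 148.0 CPM in fibroblasts, a ratio of 7.68, and at 8126 and 11312 CPM in keratocyte-like cells. The fibroblast markers in fibroblasts summed to 10643 CPM in Control and 6877 in NC-Foxc2-KO and the keratocyte markers there to 1928 and 2579 CPM, and their part in these ratios was not tested. In the uveal meshwork Plaur alone of 18 was past the rule, at 93.4 and 209 CPM with 2.23. TM-1 had Pcsk6, a proprotein convertase, and A2m higher of 17, and TM-2 had A2m higher of 15, at 2.00.

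Of the other matrix proteases, pappalysin genes were past the rule in 4 of the 6 main classes. Pappa2, which cuts insulin-like growth factor binding proteins, was the only 1 of 10 past the rule in TM-1, with 17 and 68 UMIs and a ratio of 5.19, and the only 1 of 9 in TM-2, with 3 and 48 UMIs and a ratio of 13.3. Pappa was the only 1 of 13 in TM-3, with 7 and 46 UMIs and a ratio of 5.52, and the only 1 of 13 in fibroblasts, with 5 and 60 UMIs and a ratio of 6.68. Dpp4 was higher in keratocyte-like cells, with a ratio of 2.40, and lower in the uveal meshwork, with 0.429, the only 1 of 12 tested in each.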

How the data were processed

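The authors aligned the reads and counted UMIs with Cell Ranger 4.0.0 on mm10, per the submitters' processing notes, and deposited whole UMI counts of every gene in each library, with no normalization. A second deposited table held both libraries for 19217 genes, of which 20 differed from the single tables, and it was not used for levels. No column of per-sample values was left out (0).

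Cells above 8% mitochondrial UMIs were dropped. The study's names of meshwork, fibroblast and endothelial cells were joined to barcodes through the normalized values of its source data, within 0.55 of the last digit (0.5 was planned). That width was chosen after seeing the data and left under 2% of the listed cells of each name unjoined. Other cells were clustered (scanpy 1.11.5, leidenalg 0.10.2, 15 principal components, 25 neighbors, resolution 0.8). A cluster was called X-like where at least 3 markers were among its top 100 genes and at least 2 among its top 10. The naming rule was revised after first clusters were seen. Doublets were called (422 and 509) and kept. UMIs were summed per library and class. Intervals were computed with scipy 1.17.1 in Python 3.11.15 and checked on simulated data. Gene positions came from the GENCODE annotation of the same build. Named genes were the 5 that the study names, the inhibitors, the 4 members with most UMIs in each family, those with a lead of 5, and up to 4 members at each end past the rule of size in each class. Others are named to complete a count or list. Members and lists were chosen with earlier results of these data known. One gene of the list of activators and regulators is not reported here.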

Additional observations from a re-analysis of the deposited data

Results flagged for a closer look

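Of the 57 members with at least 50 UMIs in at least 1 ranked class, 27 were past the rule of size in at least 1. For 6 of them the ratio of NC-Foxc2-KO to Control was past it upward in one cell class and downward in another. The matching share of all genes was not computed, so the 6 are a list and no result about the members as a set. The difference between the classes was not tested, because each condition was 1 library. Adamtsl5 was at 2.27 times its Control level in keratocyte-like cells and at 0.314 times it in fibroblasts. Timp3 was at 2.03 times in fibroblasts and 0.317 times in photoreceptor-like cells, where it had 33 and 20 UMIs. Timp1 was at 4.94 times in melanocyte-like cells and 0.329 times in macrophage-like cells. Mmp12 was at 2.60 times in TM-1 and 0.103 times in fibroblasts. Mmp13 was at 27.6 times in smooth muscle-like cells and 0.333 times in TM-3. Mmp3 was at 21.2 times in photoreceptor-like cells, from 2 and 81 UMIs, and 0.0612 times in TM-2. At a clustering resolution of 0.4 the photoreceptor-like ratio of Mmp3 was 1.37, and the keratocyte markers in that class summed to 3642 and 8649 CPM and its photoreceptor markers to 43241 and 13018 CPM in Control and NC-Foxc2-KO, whose part in the result was not tested. The ratios of Mmp12, Mmp13, Mmp3 and Timp1 among these rested on a few cells in at least 1 of the classes, and for Timp1 in macrophage-like cells the ratio was 0.729 without the top 1% of cells.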

How the results depend on the processing

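No paired analysis was possible because each condition was 1 library, and for the same reason no replicate could be left out. Counts of members past the rule of size were recomputed under each alternative. With a minimum of 20 UMIs, 2 members were lower in TM-1, 9 higher in TM-3, 7 lower in the uveal meshwork, 8 higher in fibroblasts and 7 higher in keratocyte-like cells. With a minimum of 200 UMIs, TM-2 had 0 higher and 0 lower, the uveal meshwork 1 lower, fibroblasts 2 lower and keratocyte-like cells 2 higher. With at most 5% mitochondrial UMIs, TM-2 had 1 higher. With each cell thinned to 1000 UMIs, which leaves fewer members at 50 UMIs, TM-1 had 0 higher, TM-2 0 higher and 0 lower, TM-3 2 higher and 0 lower, the uveal meshwork 0 lower, fibroblasts 0 higher and 1 lower, keratocyte-like cells 1 higher, and 22 members had the same highest class. With the mean of each cell's own share, TM-1 had 1 higher, TM-2 1 higher, TM-3 2 lower and fibroblasts 2 higher. With rebuilt cluster names, TM-1 had 2 lower and the uveal meshwork 1 lower. Without the 1% of cells with most UMIs of the gene, TM-1 had 0 lower, TM-2 1 higher and 0 lower, TM-3 0 lower and the uveal meshwork 2 higher and 2 lower. TM-2 had no rebuilt cluster of its name, and keratocyte-like cells had none at resolution 1.2, so these gave no value.

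Added after seeing the data were the next alternatives. With cells joined within 0.5 of the last digit, TM-2 had 1 higher. In TM-3, its cluster 3 (led by Sfrp2 and Sfrp4) alone had 0 higher and its cluster 5 (led by Myoc and Csf3) alone 2 lower. Adding the cluster led by Tnc and Hspa1a to the keratocyte-like cells gave them 4 higher and 4 lower. The other 112 recomputed counts stayed within 1.5 times.

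Of the ratios of single genes, 1907 stayed within their interval, 220 moved and 16 turned direction, and for those 16 the cause was not tested. Thinning gave 0.919 for Adam9 in Blood ECs, 0.507 for Adamts2, 0.338 for Adamts4 and 0.870 for Timp1 in smooth muscle-like cells, 1.039 for Mmp12 in the uveal meshwork, 0.874 for Mmp2 in the cluster led by Il1b and H2-Eb1 and 0.7005 for Reck in the cluster led by Tnc and Hspa1a. Leaving out doublets gave 0.650 for Adamts4 and 0.508 for Mmp13 in smooth muscle-like cells and 0.198 for Mmp3 in Schwann cell-like cells. Leaving out the top 1% of cells gave 0.433 for Mmp12 and 1.48 for Mmp3 in TM-1 and 2.79 for Mmp3 in the uveal meshwork, where rebuilt names gave 4.17. Resolution 0.4 gave 0.427 for Mmp2 and 0.410 for Timp2 in photoreceptor-like cells. Depth limited TM-2 most, the main class with the fewest UMIs, where only 16 members reached 50 UMIs.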
